A study of Mus musculus with 24 samples.

Results

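The major urinary proteins are the products of a cluster of closely related genes on mouse chromosome 4, and 8 of them (Mup3, Mup7, Mup9, Mup16, Mup18, Mup19, Mup20 and Mup21) were followed across 24 liver RNA sequencing libraries. The 8 genes were chosen by their symbols and by the levels and fold changes measured in these same libraries, so their levels and differences are descriptions. Where the text says how many of the 8 the model of all genes called, no p is given and the count supports nothing. They are 8 of 49315 genes in the count table and 8 of the 21 rows whose symbol is Mup with a number. All 8 passed the filter on low counts, as did 17216 genes in all.

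The libraries form 4 groups of 6, all of liver tissue. CCA.Mdr2-/- livers bore cholangiocarcinoma, a cancer of bile duct character, after transposon-based transduction of the oncogenes AKT and YAP1 in mice without Abcb4 (Mdr2), the phospholipid transporter of the bile canaliculus. Ctrl.Mdr2-/- livers, of the same genotype, had received an empty transduction and bore no tumour. CCA.Wild-type livers bore tumours raised by the same oncogenes in wild-type mice. Ctrl.Wild-type livers were tumour-free wild-type livers with the empty transduction. Strain, sex, age and time after delivery are not given in the labels, which call the tissues individual without saying that each is a separate animal, so the p-values speak only of the spread between libraries. Replicate numbers were given in accession order within a group, only name a library and pair nothing. In bulk tissue that can hold both tumour and liver, fewer cells of a type and less RNA per cell cannot be told apart.

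Major urinary proteins are small lipocalins, barrel-shaped carriers that hepatocytes secrete into blood and the kidney passes into urine, where they bind and slowly release volatile pheromones. Mouse liver makes them in large amounts under the control of growth hormone through STAT5, with glucocorticoid, thyroid hormone and androgen, and many are higher in males. Mup20, also called darcin, is a male sex pheromone that attracts females. Mup3 and Mup21 lie beside Mup20 at the edge of the cluster and differ in sequence from the central genes, whose copies are almost the same.

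How far a short read can tell the members apart was measured on the GENCODE vM21 transcripts (GRCm38, a build other than the mm39 named for the deposited counts). The coding sequences of Mup7, Mup9, Mup16, Mup18 and Mup19 were 98.5 to 99.8% identical to each other, and those of Mup9 and Mup19 differed at 1 position. Of all windows of 150 bases, the length of a read here, 72.4% in Mup16, 76.9% in Mup9, 77.5% in Mup7, 86.3% in Mup18 and 99.1% in Mup19 also occurred in the transcript of another gene. No such window was shared for Mup3 or Mup21, whose coding sequences were 94.7% identical. For Mup20 31.1% of the windows were shared, with a single other gene, the pseudogene Mup-ps19, and its coding sequence was 91.3% identical to the nearest other member, Mup18. The counting tool and its treatment of reads that match several genes are not stated in the labels or file headers, so counts of the 5 near-identical genes are uncertain one by one, and their sum and the values of Mup20, Mup3 and Mup21 are the firmer quantities.

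The 60 coding bases in which Mup20 and Mup18 differ most are shown because they are the kind of stretch by which reads can be assigned. All lie on the minus strand of GRCm38, within 1 exon: Mup20 at chr4:62053524-62053583, Mup3 at chr4:62086844-62086903, Mup9 at chr4:60421363-60421422, Mup16 at chr4:61518897-61518956 and Mup18 at chr4:61673499-61673558. Capitals mark bases that differ from Mup18, 11 in Mup20, 13 in Mup3, 1 in Mup16 and 0 in Mup9, and Mup21 had the letters of Mup3.
Mup20: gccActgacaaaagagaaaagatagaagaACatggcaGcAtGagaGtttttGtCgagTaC
Mup3: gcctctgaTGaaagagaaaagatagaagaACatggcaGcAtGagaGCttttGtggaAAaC
Mup9: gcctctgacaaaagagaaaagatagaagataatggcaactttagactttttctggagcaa
Mup16: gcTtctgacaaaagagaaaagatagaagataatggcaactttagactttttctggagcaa
Mup18: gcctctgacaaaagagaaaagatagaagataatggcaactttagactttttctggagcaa

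RefSeq promoter windows (GRCm38.p6, 250 bases before to 50 after the annotated start) were found for 6 of the 8 members, Mup3, Mup7, Mup9, Mup18, Mup19 and Mup21. Over the 250 bases before the start, Mup9 and Mup19 were 96.5% identical, Mup3 and Mup21 89.1%, and Mup3 and Mup9 56.0%. Mup7, though a central gene by its coding sequence, was 28.7% identical to Mup9, 32.8% to Mup18 and 30.0% to Mup19. It was 43.2% identical to Mup3 and 44.6% to Mup21. The last 100 bases before the start are shown for Mup3 and Mup21 and for 2 central genes, Mup9 and Mup18. Mup3 lies at chr4:62087318-62087417, Mup21 at chr4:62150842-62150941, Mup9 at chr4:60421953-60422052 and Mup18 at chr4:61674095-61674194, all on the minus strand. Whether promoter sequence goes with how the genes differed between the groups was not tested. Capitals mark the letters TATATAA.
Mup3: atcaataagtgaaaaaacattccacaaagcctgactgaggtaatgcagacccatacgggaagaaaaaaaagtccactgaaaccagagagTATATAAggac
Mup21: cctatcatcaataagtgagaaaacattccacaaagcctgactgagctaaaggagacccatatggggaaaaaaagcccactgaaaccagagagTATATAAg
Mup9: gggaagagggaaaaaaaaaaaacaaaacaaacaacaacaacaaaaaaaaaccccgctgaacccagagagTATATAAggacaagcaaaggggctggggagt
Mup18: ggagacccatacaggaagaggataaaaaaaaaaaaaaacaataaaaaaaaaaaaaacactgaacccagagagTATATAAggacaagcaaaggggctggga

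All motifs were searched on both strands. TATATAA, added after the sequences had been read, occurred in 5 of the 6 member windows (Mup7 was the exception) and in 3.24% of all 32851 promoter windows. The Mup7 window may end before the place that holds TATATAA in the others. The other motifs, of which TATAAA can overlap TATATAA where an A follows, were found in 0 of the 6. They were the STAT5 core TTCNNNGAA, held by 8.3% of all windows, the canonical TATA box TATAAA, held by 13.6%, and the C/EBP palindrome TTGCGCAA, held by 0.183%. These matches describe the letters of these windows only.

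Total counts were 20976459 to 30288385 per library, and the 8 members took up 0.0408 to 0.783% of them. Abcb4, the gene targeted in Mdr2-/- mice, was at 31.0 CPM in CCA.Mdr2-/- and 32.6 CPM in Ctrl.Mdr2-/- livers, against 233 CPM in CCA.Wild-type and 285 CPM in Ctrl.Wild-type livers, and the highest Mdr2-/- library, at 59.3 CPM, lay under the lowest wild-type library, at 165 CPM. CPM are counts scaled by TMM to a common library size, and the fold changes below are log2 differences ± SE from 1 edgeR quasi-likelihood model of all 24 libraries. Xist, the RNA that silences an X chromosome in females, had 15440 to 64734 counts in every library, and the Y-linked genes Ddx3y, Uty, Kdm5d and Eif2s3y had at most 25. All 24 libraries thus had the pattern of female tissue, though the labels do not give the sex. The markers of hepatocytes summed to 33942 to 68534 CPM in CCA.Mdr2-/-, 81754 to 98912 in Ctrl.Mdr2-/-, 57115 to 103306 in CCA.Wild-type and 122172 to 149299 CPM in Ctrl.Wild-type livers, with all 8 genes detected. The 8 cholangiocyte markers summed to 1132 to 4044 CPM in CCA.Mdr2-/-, 149 to 367 in Ctrl.Mdr2-/-, 198 to 1409 in CCA.Wild-type and 85.4 to 144 CPM in Ctrl.Wild-type livers. The 5 macrophage markers summed to 202 to 433 CPM in CCA.Mdr2-/-, 229 to 381 in Ctrl.Mdr2-/-, 244 to 359 in CCA.Wild-type and 219 to 278 CPM in Ctrl.Wild-type livers. Their part in the Mup differences was not tested. Of 5 markers of salivary and lacrimal gland, other tissues that make Mup RNA, 3 were at 0 in all libraries, Smgc reached 0.0361 CPM in 1 library, and Amy1, which liver also expresses, made up the rest.

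Summed over the 8 members, Mup RNA overlapped between the groups in every pairwise comparison, while the genes that made up the sum differed. The sum was 3534 ± 1039 CPM in CCA.Mdr2-/-, 2404 ± 1960 in Ctrl.Mdr2-/-, 5191 ± 2194 in CCA.Wild-type and 4512 ± 1554 CPM in Ctrl.Wild-type livers (SD, n = 6 each). The log2 ratios of the means were 0.56 for CCA.Mdr2-/- against Ctrl.Mdr2-/-, 0.20 for CCA.Wild-type against Ctrl.Wild-type, -0.91 for Ctrl.Mdr2-/- against Ctrl.Wild-type and -0.55 for CCA.Mdr2-/- against CCA.Wild-type. These comparisons share groups of libraries and are not independent.

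By length-corrected TPM, Mup20 and Mup3 made up nearly all of the sum in CCA.Mdr2-/-, Ctrl.Mdr2-/- and CCA.Wild-type livers, and a smaller and more variable part of it in Ctrl.Wild-type livers. Mup20 made up 54.2 ± 10.3% of the summed TPM in CCA.Mdr2-/- livers, 59.4 ± 8.26% in Ctrl.Mdr2-/-, 29.6 ± 9.61% in CCA.Wild-type and 1.89 ± 0.394% in Ctrl.Wild-type livers. Mup3 made up 44.6 ± 10.1% in CCA.Mdr2-/- livers, 39.9 ± 8.07% in Ctrl.Mdr2-/-, 67.6 ± 8.83% in CCA.Wild-type and 78.3 ± 17.6% in Ctrl.Wild-type livers (SD, n = 6 each). The other 6 members together gave 0.879 to 1.85% in CCA.Mdr2-/-, 0.358 to 1.13% in Ctrl.Mdr2-/-, 1.38 to 4.67% in CCA.Wild-type and 5.74 to 52.6% in Ctrl.Wild-type libraries. Within the wild-type controls alone the share of these 6 thus ran from a small part to the larger part of the summed TPM.

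**Figure D1:**
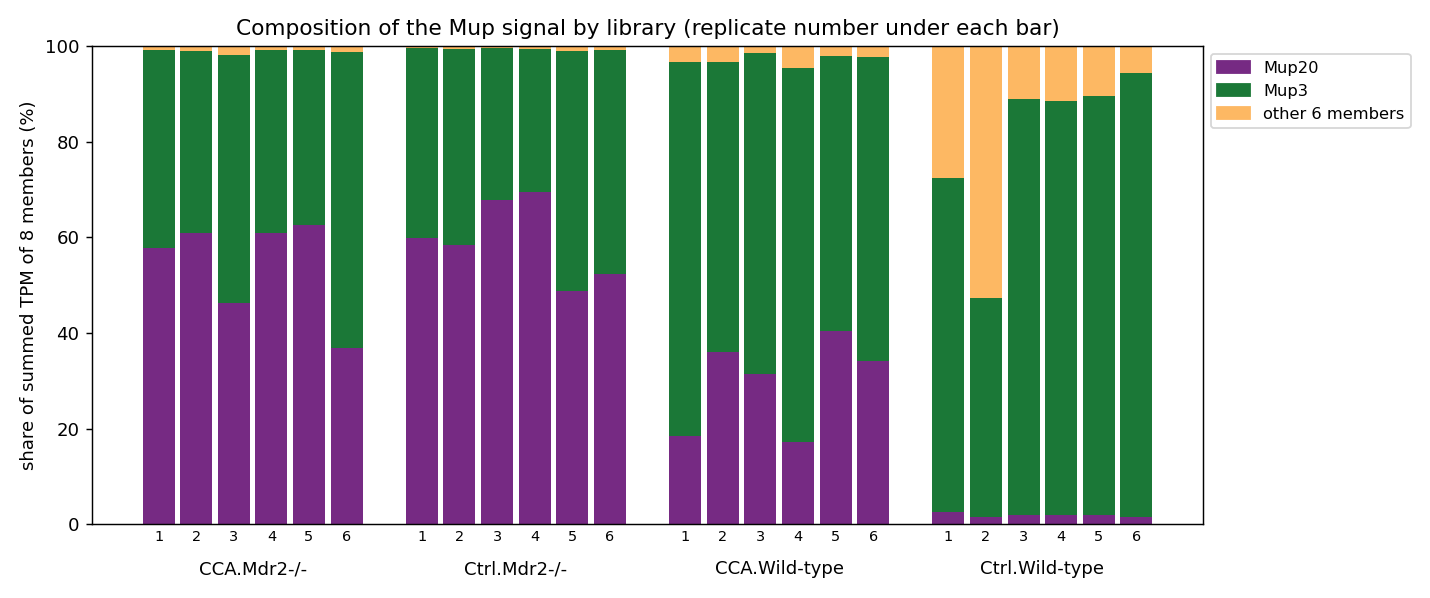
Share of the summed TPM of the 8 members (vertical axis, percent) in each of the 24 libraries, by group; colours stand for Mup20, Mup3 and the other 6 members. Mup20 is 1.42 to 2.56% in the Ctrl.Wild-type libraries and 17.1 to 69.6% in the others, and the other 6 are largest in replicates 1 and 2 of Ctrl.Wild-type.

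Some libraries stood apart within their group. Replicates 1 and 2 of Ctrl.Wild-type had 1695 and 3845 CPM of the 5 near-identical genes summed, and the other 4 replicates of that group had 258 to 375 CPM. In Ctrl.Mdr2-/- livers the sum of all 8 members was 6036 CPM in replicate 3 and 399 CPM in replicate 6, a 15.1-fold range. The hepatocyte marker sum in that group, most of which was Alb, varied 1.21-fold, and single markers varied 1.28-fold (Asgr1) to 2.17-fold (Cyp2e1). Some results that rest on these 4 libraries are given below with and without them, in fits added after the values were seen.

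Mup20, the male pheromone, was far lower in wild-type controls than in the other 3 groups. Its lowest, median and highest CPM were 905, 1993 and 2879.2 in CCA.Mdr2-/- livers, 195, 968 and 3906 in Ctrl.Mdr2-/-, 634, 1096 and 2669 in CCA.Wild-type and 50.1, 64.3 and 119 in Ctrl.Wild-type livers. Each library of the first 3 groups lay above each Ctrl.Wild-type library, and those 3 groups overlapped with each other. The log2 difference was 4.29 ± 0.54 in CCA.Wild-type against Ctrl.Wild-type livers and 4.34 ± 0.54 in Ctrl.Mdr2-/- against Ctrl.Wild-type livers. It was 0.36 ± 0.47 in CCA.Mdr2-/- against Ctrl.Mdr2-/- and 0.41 ± 0.47 in CCA.Mdr2-/- against CCA.Wild-type livers. Both of these are smaller than their SE. Mup-ps19, named after its values had been seen as the pseudogene that shares read-length windows with Mup20, had 18 to 58 counts in CCA.Mdr2-/-, 2 to 63 in Ctrl.Mdr2-/-, 12 to 47 in CCA.Wild-type and 0 or 1 in Ctrl.Wild-type libraries.

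Mup3, a liver Mup of the divergent kind, was lower in Mdr2-/- controls than in wild-type controls, opposite to Mup20. Its lowest, median and highest CPM were 1225, 1746 and 2066 in CCA.Mdr2-/- livers, 202, 929.8 and 2103 in Ctrl.Mdr2-/-, 1582, 3419 and 5677 in CCA.Wild-type and 2579, 3018 and 4639 in Ctrl.Wild-type livers. All Ctrl.Mdr2-/- libraries lay below all Ctrl.Wild-type libraries, and the groups of the other 3 comparisons overlapped. The log2 difference was -1.80 ± 0.36 in Ctrl.Mdr2-/- against Ctrl.Wild-type livers, -1.16 ± 0.35 in CCA.Mdr2-/- against CCA.Wild-type, 0.79 ± 0.35 in CCA.Mdr2-/- against Ctrl.Mdr2-/- and 0.15 ± 0.35 in CCA.Wild-type against Ctrl.Wild-type livers. On the TPM scale Mup20 stood at 1.30 ± 0.452 times Mup3 in CCA.Mdr2-/- livers, 1.58 ± 0.548 times in Ctrl.Mdr2-/-, 0.459 ± 0.195 times in CCA.Wild-type and 0.0252 ± 0.00716 times in Ctrl.Wild-type livers. Over all 24 libraries the 2 genes had a Pearson correlation of -0.13 on the log2 scale, and of 0.80 once the group means were removed.

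**Figure D2:**
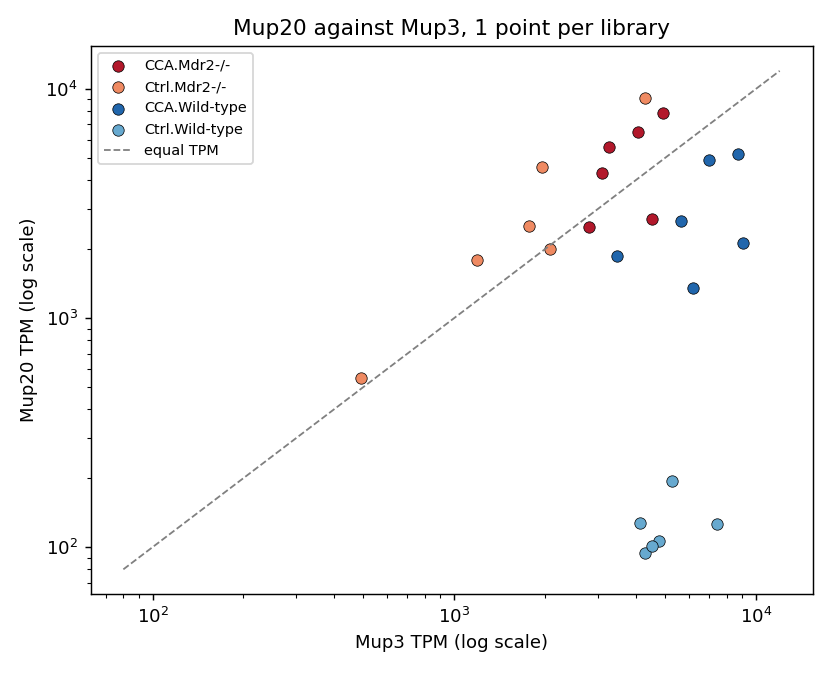
TPM of Mup20 (vertical axis, log scale) against TPM of Mup3 (horizontal axis, log scale), 1 point per library, coloured by group; the dashed line marks equal TPM. The Ctrl.Wild-type libraries lie at 94.6 to 194 TPM of Mup20, and all others lie at 546 TPM or higher.

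Mup21, the neighbour of Mup3 with the most similar coding sequence, followed Mup3 at a far lower level. Its lowest, median and highest CPM were 3.01, 6.88 and 7.70 in CCA.Mdr2-/- livers, 1.41, 4.43 and 13.3 in Ctrl.Mdr2-/-, 14.8, 20.3 and 28.8 in CCA.Wild-type and 9.59, 16.7 and 26.8 in Ctrl.Wild-type livers. The tumour-bearing groups did not overlap, and the control groups did, through replicate 3 of Ctrl.Mdr2-/-. The log2 difference was -1.82 ± 0.38 in CCA.Mdr2-/- against CCA.Wild-type and -1.75 ± 0.38 in Ctrl.Mdr2-/- against Ctrl.Wild-type livers. The tumour differences were 0.22 ± 0.38 in Mdr2-/- and 0.29 ± 0.37 in wild-type livers. The correlation of Mup21 with Mup3 was 0.89 over the 24 libraries and 0.76 with group means removed.

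The 5 near-identical central genes had their highest levels in wild-type controls and their lowest in Mdr2-/- controls. Summed, their lowest, median and highest values were 21.999, 33.2 and 53.3 CPM in CCA.Mdr2-/-, 1.41, 10.5 and 14.9 in Ctrl.Mdr2-/-, 32.5, 138 and 276 in CCA.Wild-type and 258, 366 and 3845 CPM in Ctrl.Wild-type livers. The Ctrl.Mdr2-/- libraries lay below all others, and the lowest Ctrl.Wild-type library lay within the range of CCA.Wild-type. Mup9, which had the higher median TPM of Mup9 and Mup18 in both Mdr2-/- groups, had 13.9, 20.9 and 27.9 CPM in CCA.Mdr2-/- livers, 0.738, 5.61 and 8.11 in Ctrl.Mdr2-/-, 18.0, 59.5 and 159 in CCA.Wild-type and 83.6, 210.4 and 2394 CPM in Ctrl.Wild-type livers. Mup18 had 6.28, 11.01 and 15.4 CPM in CCA.Mdr2-/- livers, 0.527, 3.41 and 5.59 in Ctrl.Mdr2-/-, 10.8, 57.3 and 126 in CCA.Wild-type and 89.9, 160.3 and 1138 CPM in Ctrl.Wild-type livers. For both genes the Ctrl.Wild-type libraries overlapped with CCA.Wild-type and lay above both Mdr2-/- groups.

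Mup16, Mup7 and Mup19 lay lower and had their medians in the order of Mup9 and Mup18. The median of Mup16 was 2.49 CPM in CCA.Mdr2-/-, 0.499 in Ctrl.Mdr2-/-, 8.84 in CCA.Wild-type and 25.6 CPM in Ctrl.Wild-type livers. The median of Mup7 was 0.522 CPM in CCA.Mdr2-/-, 0.0876 in Ctrl.Mdr2-/-, 0.942 in CCA.Wild-type and 3.55 CPM in Ctrl.Wild-type livers. Mup19, nearly all of whose windows are shared with other Mup genes, rested on 2 to 42 counts per library in CCA.Mdr2-/-, 0 to 5 in Ctrl.Mdr2-/-, 14 to 68 in CCA.Wild-type and 50 to 343 in Ctrl.Wild-type livers. The fold changes of Mup7 and Mup19 in Mdr2-/- controls therefore rest on 26 and 13 counts in all 6 libraries. The 5 genes varied together, with Pearson correlations of 0.90 to 0.98 between pairs over the 24 libraries and 0.74 to 0.92 with group means removed, and reads shared between the copies enter each of these values. Replicate 2 was the highest of the Ctrl.Wild-type libraries for 5 of the 5 genes.

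**Figure D3:**
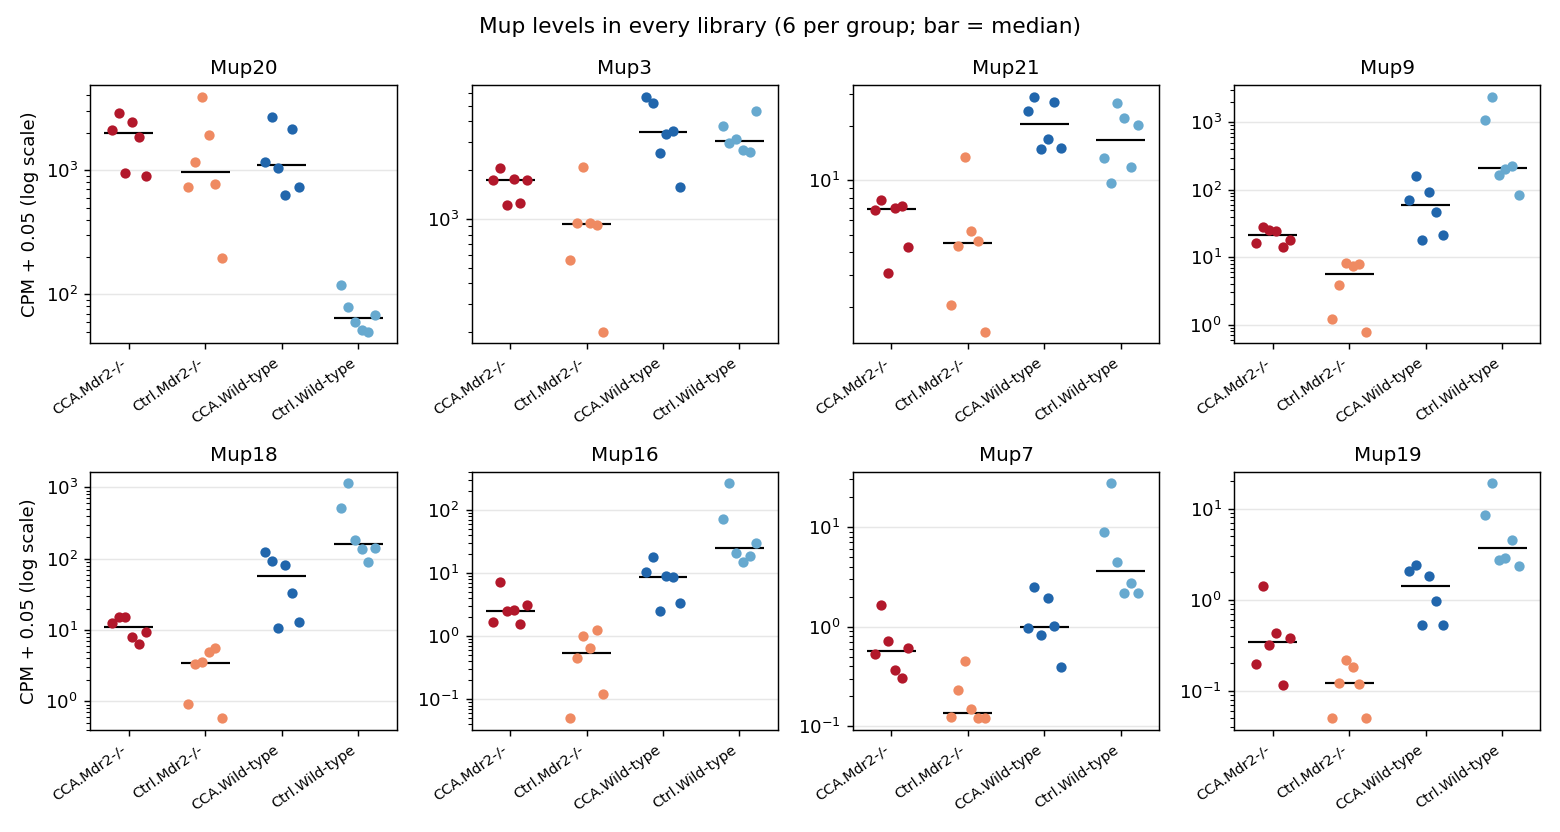
CPM plus 0.05 (vertical axis, log scale) of each member in every library, by group, with a bar at the median of 6 libraries. Mup20 is lowest in Ctrl.Wild-type livers (50.1 to 119 CPM); Mup9, Mup18, Mup16, Mup7 and Mup19 have their highest library in that group and their lowest in Ctrl.Mdr2-/-.

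Livers without Mdr2 and without tumour differed most from wild-type controls, by the median over the members. Of the 8 members, 1 (Mup20) was called higher in Ctrl.Mdr2-/- than in Ctrl.Wild-type livers and 7 lower at an adjusted p under 0.05, beside 26.2% of all genes called higher and 24.3% called lower, and nothing is read from this count because such differences chose the members. The 5 near-identical genes differed by -7.15 ± 0.91 (Mup9), -7.01 ± 0.89 (Mup16), -6.87 ± 0.83 (Mup18), -6.35 ± 0.77 (Mup19) and -5.66 ± 0.73 (Mup7). The median over the 8 members was -6.01, against 0.03 over all genes. Without replicates 1 and 2 of Ctrl.Wild-type the 5 differences lay between -5.47 and -4.21 and Mup20 was at 4.63. Without replicates 3 and 6 of Ctrl.Mdr2-/- they lay between -7.08 and -6.14 and Mup20 was at 4.01.

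In wild-type livers with tumour the central Mup genes were lower and Mup20 was higher than in tumour-free ones. Of the 8 members 1 (Mup20) was called higher and 5 lower in CCA.Wild-type than in Ctrl.Wild-type livers, beside 16.9% of all genes called higher and 11.5% called lower, and again nothing is read from it. The differences were -3.35 ± 0.76 for Mup9, -3.03 ± 0.70 for Mup16, -2.68 ± 0.59 for Mup7, -2.62 ± 0.68 for Mup18 and -2.30 ± 0.57 for Mup19. The median was -2.46, against 0.03 over all genes. Without replicates 1 and 2 of Ctrl.Wild-type these 5 differences shrank to between -1.32 and -1.23 and none of the 5 was called, which left Mup20 at 4.57. The numbers in the sample titles, whose meaning is not given, are 2000 or more in all CCA.Wild-type libraries and in replicate 6 alone of Ctrl.Wild-type, and with a term for this split Mup20 was likewise the single member called.

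In Mdr2-/- livers the direction of the central genes was the opposite. Of the 8 members 5 were called higher and 0 lower by edgeR in CCA.Mdr2-/- than in Ctrl.Mdr2-/- livers, beside 17.9% of all genes called higher and 17% called lower, and nothing is read from it. The differences were 2.48 ± 0.81 for Mup16, 2.42 ± 0.85 for Mup19, 2.09 ± 0.74 for Mup9, 2.07 ± 0.76 for Mup7 and 1.83 ± 0.69 for Mup18, and all CCA.Mdr2-/- libraries lay above all Ctrl.Mdr2-/- libraries for Mup9, Mup16 and Mup18. The median was 1.95, against 0.04 over all genes. Over all alternatives run, these differences kept their sign and ranged from 1.93 to 3.06 for Mup16, 0.66 to 2.81 for Mup19, 1.86 to 2.64 for Mup9, 0.87 to 2.65 for Mup7 and 1.59 to 2.29 for Mup18. Whether they passed the threshold varied: 0 of the 8 members were called without replicate 2 of CCA.Mdr2-/-, without replicate 1 or without replicate 6 of Ctrl.Mdr2-/-, and 3 without replicate 6 of CCA.Mdr2-/- or replicate 2 or 5 of Ctrl.Mdr2-/-. Without replicates 3 and 6 of Ctrl.Mdr2-/- together, Mup3 was the single member called, at 0.95, and the 5 central genes differed by 1.59 to 2.55. With no filter on low counts 0 members were called.

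Between the tumour-bearing groups the members differed least, by the absolute median. Of the 8 members 0 were called higher and 3 lower in CCA.Mdr2-/- than in CCA.Wild-type livers, beside 7.13% of all genes called higher and 4% called lower, and nothing is read from it. The 3 were Mup18 at -2.42 ± 0.68, Mup21 at -1.82 ± 0.38 and Mup3 at -1.16 ± 0.35, and the median of the 8 was -1.57, against -0.02 over all genes. The count was 1 without replicate 6 of CCA.Mdr2-/- and without replicate 1, 2 or 4 of CCA.Wild-type, and also with no filter on low counts or with limma on log2(TPM + 0.1). The difference between the tumour effects, Mdr2-/- minus wild-type, was called higher for the 5 central genes, at 4.45 ± 0.96 (Mup18) to 5.51 ± 1.07 (Mup16), and lower for Mup20, at -3.93 ± 0.69, beside 11.9% and 13.4% of all genes called higher and lower, with nothing read from it. Both tumour comparisons enter this difference, and with them the control levels given above. Without replicates 1 and 2 of Ctrl.Wild-type it was 3.01 (Mup18) to 3.76 (Mup16) for the 5 central genes and -4.24 for Mup20. Without replicates 3 and 6 of Ctrl.Mdr2-/- it was 4.20 (Mup18) to 5.47 (Mup16) and -3.60 for Mup20.

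**Figure D4:**
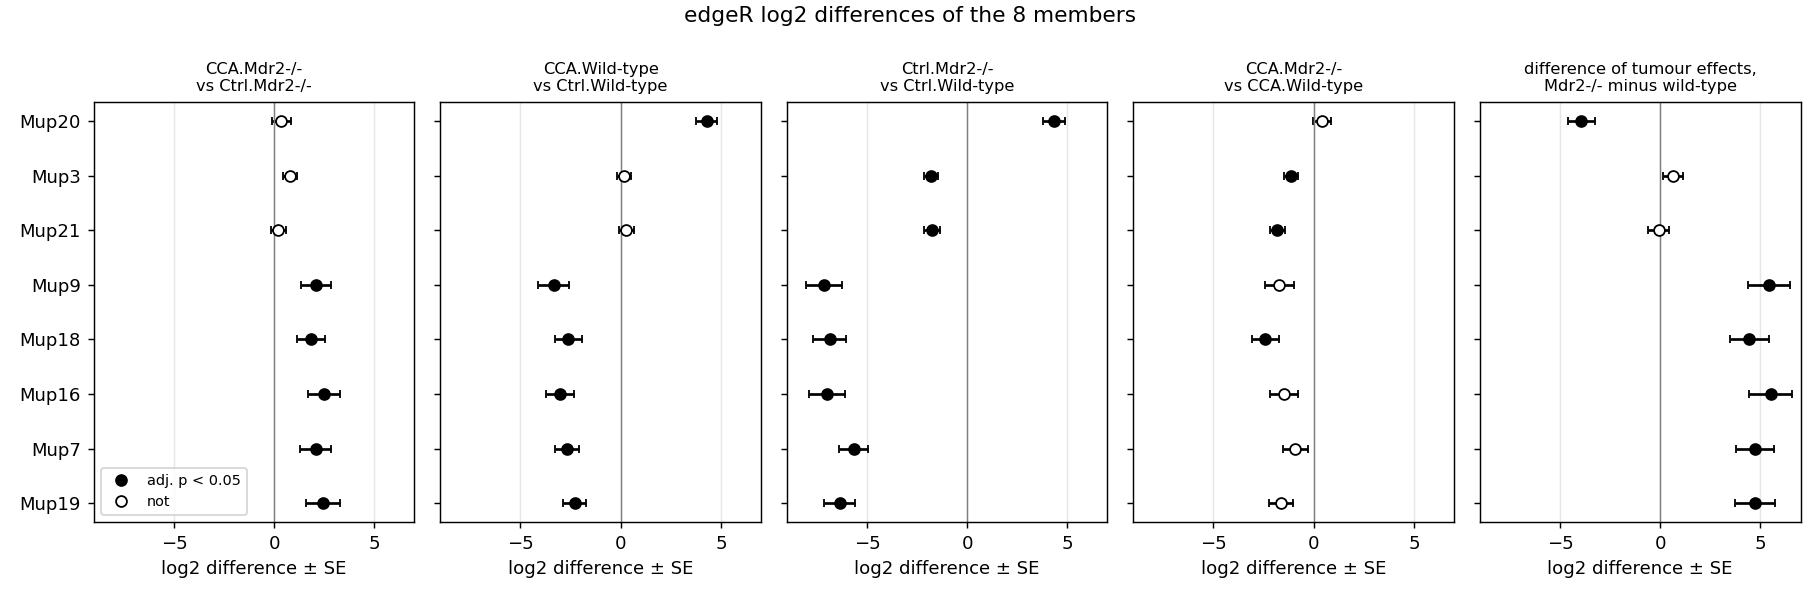
Log2 differences ± SE (horizontal axis) of the 8 members (rows) in the 5 comparisons (panels); filled points have an adjusted p under 0.05, which is a description here because such differences chose the members. Mup20 stands opposite to the 5 central genes in the panels that set Ctrl.Mdr2-/- or CCA.Wild-type against Ctrl.Wild-type.

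The tested Mup rows outside the 8 members were lower in Mdr2-/- controls than in wild-type controls, as the central genes were. Of 13 such rows 6 passed the filter (Mup1, Mup2, Mup10, Mup12, Mup14 and Mup17), and together all 13 held 0.233 to 2.74% of the Mup counts of a library. In Ctrl.Mdr2-/- against Ctrl.Wild-type livers 6 of the 6 fell at an edgeR adjusted p under 0.05, by 4.84 (Mup17) to 3.16 (Mup14) on the log2 scale, beside 24.3% of all genes called lower. Mup14 passed the filter only with its Ctrl.Wild-type counts, which were 4 to 40 against 0 to 9 in Ctrl.Mdr2-/- libraries. Its lower level than in that group is therefore no finding, here or in the counts of 6 below. The next smallest difference was that of Mup12, at -3.35. In CCA.Wild-type against Ctrl.Wild-type livers 6 of 6 fell, by 2.05 (Mup17) to 1.35 (Mup2), beside 11.5% of all genes, but 2 were called without replicates 1 and 2 of Ctrl.Wild-type and 0 with the term for title numbers. In CCA.Mdr2-/- against Ctrl.Mdr2-/- livers 2 of 6 rose, beside 17.9% of all genes, Mup2 by 1.07 ± 0.36 (edgeR adjusted p = 0.0256) and Mup10 by 1.90 ± 0.50 (adjusted p = 0.00688). Mup2, the most abundant of them, was at 11.2 CPM in CCA.Mdr2-/- livers and 5.33 in Ctrl.Mdr2-/-, and at 25.05 in CCA.Wild-type and 63.6 CPM in Ctrl.Wild-type livers. In the Mdr2-/- comparison 1 was called without replicate 2 of CCA.Mdr2-/- or without replicate 1, 5 or 6 of Ctrl.Mdr2-/-, and 5 without replicate 3 of Ctrl.Mdr2-/-. In CCA.Mdr2-/- against CCA.Wild-type livers 1 of 6 was called lower, beside 4% of all genes, Mup2 (-1.16 ± 0.35, edgeR adjusted p = 0.0339), and 0 were called without any one of replicates 3 to 6 of CCA.Mdr2-/- or 1, 2 and 4 of CCA.Wild-type. The difference of the tumour effects was called higher for 6 of 6, beside 11.9% of all genes, and for 4 without replicates 1 and 2 of Ctrl.Wild-type. Of 8 Mup pseudogene rows with 100 counts or more, 1 (Mup-ps19) rose and 7 fell in Ctrl.Mdr2-/- against Ctrl.Wild-type livers, beside 26.2% and 24.3% of all genes. Mup-ps19 rose by 5.12 on the log2 scale (edgeR adjusted p = 1.73e-05), and the 7 fell by 3.76 (Mup-ps4) to 2.08 (Mup-ps13). Among the 7, Mup-ps1 is named because it, like Mup14, passed the filter only with its Ctrl.Wild-type counts. Mup-ps4 and Mup-ps13 are named as the ends of this range, after their values had been seen, and Mup-ps4 fell to 1.49 CPM in Ctrl.Mdr2-/- against 20.3 CPM in Ctrl.Wild-type livers (-3.76 ± 0.44, edgeR adjusted p = 3.02e-07). These rows share sequence with the members, so their counts are not independent of them.

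Genes with female-biased expression in mouse liver, many of which depend on continuous growth hormone, were lower in Mdr2-/- controls than in wild-type controls. This list and those below were chosen with earlier results of these data known, so their counts are descriptions. Of 15 listed and tested genes, 15 fell in Ctrl.Mdr2-/- against Ctrl.Wild-type livers, with a list median of -3.18, and 11 fell in CCA.Wild-type against Ctrl.Wild-type livers, with a median of -1.67, against a median of 0.03 over all genes in both. Of all genes 24.3% were called lower in the control comparison and 11.5% in the wild-type tumour comparison. Sult3a1, a sulfotransferase, was at 33.9 CPM in Ctrl.Mdr2-/- and 3077 CPM in Ctrl.Wild-type livers, a log2 difference of -6.51 ± 0.62 (edgeR adjusted p = 1.43e-08). Cyp3a44, a cytochrome P450 of female liver, was at 5.27 CPM in Ctrl.Mdr2-/- against 512 CPM in Ctrl.Wild-type livers (-6.60 ± 0.84, edgeR adjusted p = 1.97e-06), and at 17.5 CPM in CCA.Wild-type livers (-4.88 ± 0.77, adjusted p = 6.62e-05). In CCA.Mdr2-/- against Ctrl.Mdr2-/- livers 3 of 15 fell (Cyp2b13, A1bg and Cyp2b9) and 0 rose, with a median of -0.03, beside 17% of all genes called lower, and 8 of 15 fell in CCA.Mdr2-/- against CCA.Wild-type livers, beside 4%. The difference of the tumour effects was called higher for 8 and lower for 1 of the 15, beside 11.9% and 13.4% of all genes. Without replicates 1 and 2 of Ctrl.Wild-type, 15 of 15 were called in the control comparison and 9 in the wild-type tumour comparison.

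Genes with male-biased expression were called in both directions. Of 11 listed and tested genes, 5 rose and 4 fell in Ctrl.Mdr2-/- against Ctrl.Wild-type livers, beside 26.2% of all genes called higher and 24.3% lower. In CCA.Wild-type against Ctrl.Wild-type livers 4 rose and 4 fell, beside 16.9% and 11.5%. Cyp4a12a, a fatty acid hydroxylase of male liver, was at 166 CPM in CCA.Wild-type livers against 2.50 CPM in Ctrl.Wild-type livers (6.08 ± 0.80, edgeR adjusted p = 8.07e-06). C6, a complement component, was at 256 CPM in Ctrl.Mdr2-/- against 25.4 CPM in Ctrl.Wild-type livers (3.33 ± 0.27, edgeR adjusted p = 1e-09). Hsd3b5, a steroid dehydrogenase of male liver, fell instead, to 0.103 CPM in Ctrl.Mdr2-/- against 2.67 CPM in Ctrl.Wild-type livers (-4.62 ± 0.49, edgeR adjusted p = 6.3e-08). In CCA.Mdr2-/- against Ctrl.Mdr2-/- livers 2 of the 11 rose and 1 fell, beside 17.9% and 17% of all genes. This count of 3 was 1 without replicate 2 of CCA.Mdr2-/- or replicate 1 or 6 of Ctrl.Mdr2-/-. In CCA.Mdr2-/- against CCA.Wild-type livers 1 rose (C6) and 0 fell, beside 7.13% and 4% of all genes, with 2 called without replicate 2 of CCA.Mdr2-/-. Both counts are near the shares over all genes and are not a result about the list.

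**Figure D5:**
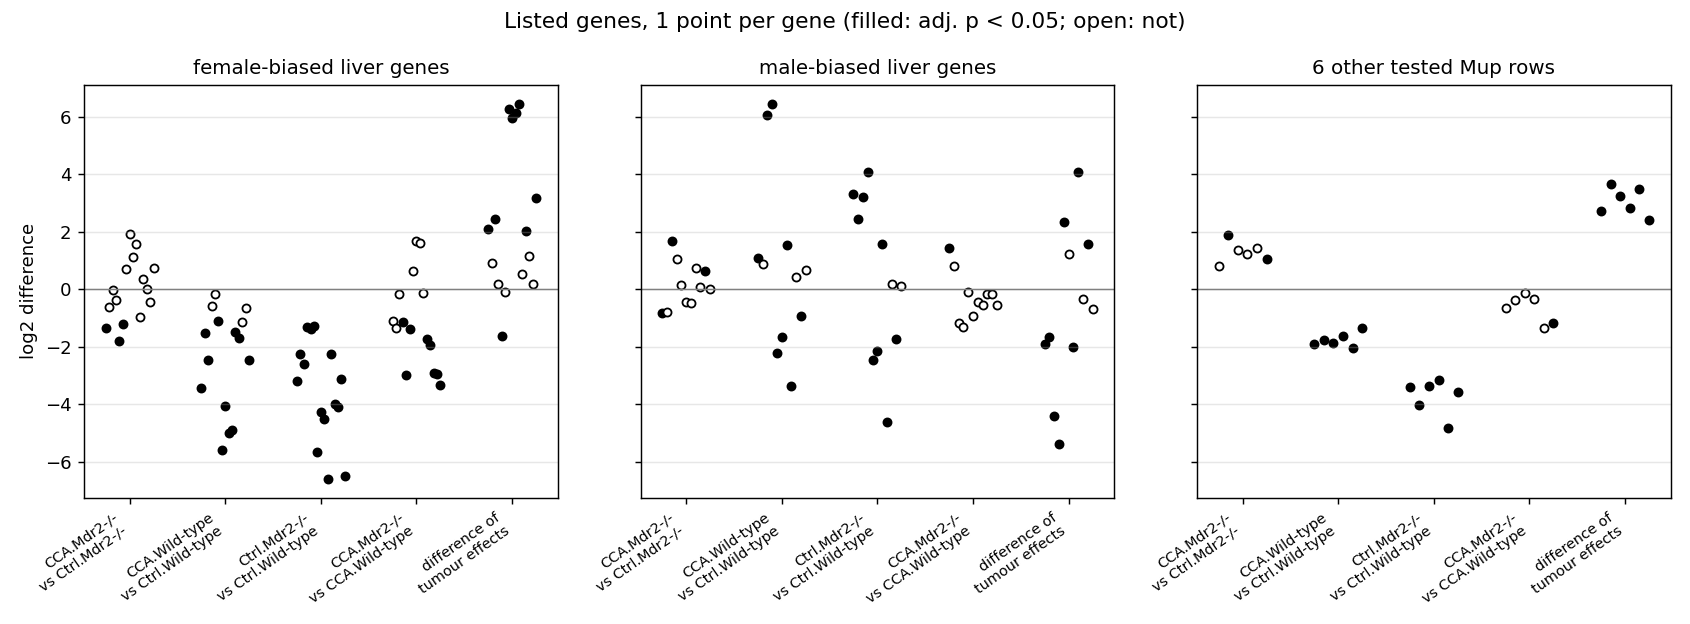
Log2 differences (vertical axis) in the 5 comparisons (horizontal axis), 1 point per gene, for 15 female-biased genes, 11 male-biased genes and the 6 other tested Mup rows; filled points have an adjusted p under 0.05. In Ctrl.Mdr2-/- against Ctrl.Wild-type livers all 15 female-biased genes and all 6 Mup rows are filled and lie below 0.

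From the growth hormone and STAT5 axis, through which liver reads the hormone, 12 genes were listed. Ghr, the growth hormone receptor, was at 501 CPM in Ctrl.Mdr2-/- against 1200.1 CPM in Ctrl.Wild-type livers (-1.26 ± 0.19, edgeR adjusted p = 9.42e-06), and Socs2, a feedback inhibitor that STAT5 induces, fell by 1.10 ± 0.31 on the log2 scale (adjusted p = 0.00493). Of the 12, 1 rose and 3, Ghr and Socs2 among them, fell in that comparison. The share that fell is near the 24.3% of all genes called lower, and the share that rose is below the 26.2% called higher. The count is therefore not a result about the axis. In CCA.Wild-type against Ctrl.Wild-type livers 2 rose and 7 fell, beside 16.9% and 11.5% of all genes, and in CCA.Mdr2-/- against Ctrl.Mdr2-/- livers 1 rose and 4 fell, beside 17.9% and 17%. In CCA.Mdr2-/- against CCA.Wild-type livers 0 of 12 were called by edgeR, beside 7.13% of all genes called higher and 4% lower, and 1 without replicate 1 of CCA.Mdr2-/-. Igf1, the main hormone target, fell by 1.13 ± 0.20 in CCA.Wild-type against Ctrl.Wild-type livers (edgeR adjusted p = 0.00015). In the wild-type tumour comparison 5 of the 12 in place of 9 were called with the term for title numbers or without replicate 5 of Ctrl.Wild-type.

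Of 14 hormone receptors and transcription factors known to act on hepatocyte genes of this kind, 2 rose and 5 fell in Ctrl.Mdr2-/- against Ctrl.Wild-type livers. With 26.2% and 24.3% of all genes called higher and lower, this is near the share over all genes and is not a result about these factors. In each tumour comparison 0 rose and 5 fell by edgeR, beside 17% of all genes called lower in Mdr2-/- and 11.5% in wild-type livers. The 7 became 4 without replicates 1 and 2 of Ctrl.Wild-type, and the 5 became 3 without replicates 3 and 6 of Ctrl.Mdr2-/- in the Mdr2-/- comparison, or without replicate 3 of CCA.Wild-type or replicate 6 of Ctrl.Wild-type in the wild-type one. Zhx2, a homeobox factor that regulates Mup genes in mouse liver, rose by 0.85 ± 0.19 in Ctrl.Mdr2-/- against Ctrl.Wild-type livers (edgeR adjusted p = 0.000846). Hnf4a, a nuclear receptor that maintains hepatocyte identity, fell by 1.12 ± 0.25 on the log2 scale in CCA.Mdr2-/- against Ctrl.Mdr2-/- livers (edgeR adjusted p = 0.00225).

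Most of the other secreted hepatocyte products listed fell in both tumour comparisons and in Mdr2-/- controls. Of 16 listed genes, 2 rose and 11 fell in Ctrl.Mdr2-/- against Ctrl.Wild-type livers, with a median of -0.48, beside 26.2% and 24.3% of all genes. In CCA.Mdr2-/- against Ctrl.Mdr2-/- livers 0 rose by edgeR and 11 fell, beside 17% of all genes called lower, with a median of -0.78 against 0.04 over all genes. Alb, serum albumin, was at 28381 CPM in CCA.Mdr2-/- livers against 60642 CPM in Ctrl.Mdr2-/- livers (-1.10 ± 0.17, edgeR adjusted p = 9.96e-05). In CCA.Wild-type against Ctrl.Wild-type livers 1 rose and 11 fell, beside 16.9% and 11.5% of all genes, or 7 were called in all with the term for title numbers. Of 16 other lipocalins 10 were tested, of which 3 rose and 4 fell in Ctrl.Mdr2-/- against Ctrl.Wild-type livers, beside the same 26.2% and 24.3%. Lcn2, an iron-scavenging lipocalin of the acute response, was at 274 CPM in Ctrl.Mdr2-/- against 13.3 CPM in Ctrl.Wild-type livers (4.36 ± 0.46, edgeR adjusted p = 6.46e-08), and rose by 3.20 ± 0.44 in CCA.Wild-type livers (adjusted p = 7.06e-06).

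Outside the family, the genes whose log2 CPM followed the summed members most closely over the 24 libraries, among 9874 candidates of at least 5 CPM, included Rnf11, Cnih1, Rab6a, Spryd7 and Ppp3r1. Their Pearson correlations with the sum were 0.85 to 0.86, and 0.75 to 0.81 with group means removed. The 24 libraries are 4 groups that share scaling factors and differ in their cell type markers, so these values describe this set of libraries only.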

How the data were processed

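Liver RNA of 24 mouse libraries in 4 groups of 6, depleted of ribosomal RNA with a kit named for bacteria, was sequenced as paired reads. The authors deposited a table of whole-number counts per gene and a table of TPM, and per the submitters' processing notes the build was mm39 and DESeq2 was used. No label or file header states how reads were aligned and counted, whether strand was used, or what became of reads that match several genes, and near-identical Mup genes can lose or exchange reads by that handling. TPM were used as deposited.

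The counts were analysed in R 4.3.3 with edgeR 4.0.16 (filterByExpr with a minimum count of 10, TMM, robust glmQLFit, 1 mean per group, 2-sided quasi-likelihood tests, Benjamini-Hochberg adjustment over 17216 genes, calls at an adjusted p under 0.05). The biological coefficient of variation was 0.272, and 1 CPM stood for 16.4 to 34.2 counts. The 174 rows without a symbol carry a gene ID, held 0.0111 to 0.0178% of counts and were kept. Columns of both tables were all assigned to samples by name. On data simulated for CCA.Wild-type against Ctrl.Wild-type (16215 genes), a 4-fold change was called in 100 of 100 genes and a 2-fold change in 25 of 100, and 7 of 16015 unchanged genes were called. The simulation gave all genes the same dispersion and changed only genes with higher expected counts. Its rates need not hold for the members: Mup9 had an SD of 132% of its mean CPM in Ctrl.Wild-type livers, and Mup19 had 0 to 5 counts in Ctrl.Mdr2-/- libraries.

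The members and gene lists were chosen with earlier results of these data known. The text names all members, the other Mup rows, up to 3 called genes with the largest fold per list and comparison, Abcb4, and the 6 genes most correlated with the summed members; exceptions are marked, and some genes under this rule are not reported here. The lists were female- and male-biased liver genes, the growth hormone axis, hormone receptors and transcription factors, other lipocalins and secreted hepatocyte proteins. Alternatives were other scalings and filters, a title-number term, DESeq2 1.42.0, limma 3.58.1 on log2 TPM with a pseudocount of 1 or 0.1, fits of the 12 libraries compared, and each library left out. Transcripts were taken from GENCODE vM21 and aligned with Biopython 1.88, and figures were drawn with matplotlib 3.10.9.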

Additional observations from a re-analysis of the deposited data

Results flagged for a closer look

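Of 36 groups of 6 libraries examined over the members and their sum, 7 held a library whose gap to the nearest other library was, as a part of the group's range, above Dixon's critical value for 6 samples. For normally distributed values chance flags about 1 in 20 groups. The test was run on unlogged CPM, which were skewed in several groups, so that rate need not hold here. Replicate 2 of CCA.Mdr2-/- stood above the rest of its group for Mup7 (1.60 CPM), Mup16 (7.12 CPM) and Mup19 (1.35 CPM). Replicate 3 of Ctrl.Mdr2-/- did so for Mup7 (0.401 CPM) and Mup21 (13.3 CPM). Replicate 2 of Ctrl.Wild-type did so for Mup7 (27.3 CPM) and Mup16 (266 CPM). The flagged Mup7, Mup16 and Mup19 values come from near-identical genes and are not independent of each other.

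The effect of the tumour differed between Mdr2-/- and wild-type livers for 6 members by the interaction term, given as a log2 difference, Mdr2-/- minus wild-type. It was 4.75 for Mup7, 5.44 for Mup9, 5.51 for Mup16, 4.45 for Mup18 and 4.72 for Mup19, where the tumour difference was above 0 in Mdr2-/- and below 0 in wild-type livers. It was -3.93 for Mup20, whose tumour difference was 0.36 in Mdr2-/- and 4.29 in wild-type livers. Without replicates 1 and 2 of Ctrl.Wild-type it shrank to 3.01 (Mup18) to 3.76 (Mup16) for the central genes and was -4.24 for Mup20. The members were chosen on such differences, so these values are descriptions.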

How the results depend on the processing

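No called member difference changed sign in the alternatives run. Among the uncalled ones Mup3 in CCA.Wild-type against Ctrl.Wild-type livers (0.15) was -0.02 without replicate 1 of CCA.Wild-type, and the difference of the tumour effects for Mup21 (-0.07) reached 0.48 without replicate 3 of Ctrl.Mdr2-/-. With no filter on low counts 0 members were called in CCA.Mdr2-/- against Ctrl.Mdr2-/- livers (5 in the report) and 1 in CCA.Mdr2-/- against CCA.Wild-type livers (3 in the report), where limma on log2(TPM + 0.1) also called 1. In CCA.Wild-type against Ctrl.Wild-type livers (6 in the report) 1 was called with the term for title numbers under 2000 and 1 without wild-type controls 1 and 2, and without Mdr2-/- controls 3 and 6 1 was called in CCA.Mdr2-/- against Ctrl.Mdr2-/- livers; these last 2 alternatives were chosen after seeing the data, and the cause was not tested. Leaving out 1 library at a time gave 0 to 5 calls in CCA.Mdr2-/- against Ctrl.Mdr2-/-, 1 to 4 in CCA.Mdr2-/- against CCA.Wild-type, 6 in CCA.Wild-type against Ctrl.Wild-type, 8 in Ctrl.Mdr2-/- against Ctrl.Wild-type livers and 6 for the difference of the tumour effects. The log2 ratio of the sum then ranged from 0.33 to 1.07, from -0.70 to -0.38, from 0.03 to 0.37, from -1.42 to -0.68 and from 0.13 to 0.87 in the same comparisons. Scaling by total counts moved the median log2 difference of all genes to 0.28, 0.33, 0.33 and 0.23 in CCA.Mdr2-/- against Ctrl.Mdr2-/-, CCA.Wild-type against Ctrl.Wild-type, Ctrl.Mdr2-/- against Ctrl.Wild-type and CCA.Mdr2-/- against CCA.Wild-type livers. By limma on TPM the growth hormone axis and the receptor list each had 3 calls in CCA.Mdr2-/- against Ctrl.Mdr2-/- livers (5 by edgeR), and the secreted proteins 8 in the control comparison (13 by edgeR). No paired analysis was possible because the labels give no replicate numbers, and those used here only name libraries. Mup7 and Mup19 are limited by counts: 26 and 13 in all Ctrl.Mdr2-/- libraries.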
